A study of Mus musculus with 12 samples.

Results

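The mevalonate pathway enzymes are described here as 8 genes, taken by symbol from the deposited count files: Acat2, Hmgcs1, Mvk, Pmvk, Mvd, Idi1, Fdps and Ggps1. All 8 were found among 53819 names in the files, and all 8 were among the 13151 genes with enough counts to be tested. They run from acetyl-CoA to the prenyl diphosphates but do not cover every step. RNA was sequenced from monocytes of the bone marrow, all from wild-type mice of the C57Bl6J strain, in 4 groups of 3 libraries. Monocytes had an overnight exposure to platelets, a wash and then lipopolysaccharide (LPS, an outer membrane component of Gram-negative bacteria that Toll-like receptor 4 detects). Others had platelets and the wash only, LPS only, or no treatment. The sources used here give no platelet number, LPS dose, time with LPS or age. Nor do the labels state that replicates are different animals or wells, so the p-values reflect variation among libraries that could be technical alone.

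The pathway builds isoprenoids in the cytosol, the endoplasmic reticulum and peroxisomes. Acat2 joins acetyl-CoA units to acetoacetyl-CoA and Hmgcs1 adds another to give HMG-CoA. Mvk and Pmvk each add a phosphate to mevalonate, and Mvd removes carbon dioxide to give isopentenyl diphosphate, which Idi1 converts to its isomer dimethylallyl diphosphate. Fdps joins these units to farnesyl diphosphate, the branch point to squalene and cholesterol, and Ggps1 extends it to geranylgeranyl diphosphate, which anchors small GTPases to membranes. When sterols in the endoplasmic reticulum are low, the transcription factor SREBP-2, the product of Srebf2, is released by proteolysis and binds sterol regulatory elements in promoters of these genes.

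RefSeq promoter windows, from 250 bases before to 50 bases after an annotated start on GRCm38.p6, were found for 7 of the 8 genes. Fdps had none. The windows of Hmgcs1, Mvd and Idi1 are shown because these genes fell with platelets both with and without LPS, and that of Ggps1 because it did not pass the threshold in either platelet comparison. Capitals mark, on either strand, TCACCCCAC (a sterol regulatory element), CCAAT (the box bound by NF-Y) and GGGCGG (the GC box bound by Sp1), and each sequence is written 5′ to 3′ on the strand of its gene.
Hmgcs1, chr13:119690101-119690400, plus strand: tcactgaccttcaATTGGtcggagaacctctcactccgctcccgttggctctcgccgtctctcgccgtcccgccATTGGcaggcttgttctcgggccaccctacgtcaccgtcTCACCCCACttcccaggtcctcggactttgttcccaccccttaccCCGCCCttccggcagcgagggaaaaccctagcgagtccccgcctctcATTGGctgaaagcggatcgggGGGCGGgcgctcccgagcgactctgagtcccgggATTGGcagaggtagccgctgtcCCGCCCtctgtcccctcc
Mvd, chr8:122443373-122443672, minus strand: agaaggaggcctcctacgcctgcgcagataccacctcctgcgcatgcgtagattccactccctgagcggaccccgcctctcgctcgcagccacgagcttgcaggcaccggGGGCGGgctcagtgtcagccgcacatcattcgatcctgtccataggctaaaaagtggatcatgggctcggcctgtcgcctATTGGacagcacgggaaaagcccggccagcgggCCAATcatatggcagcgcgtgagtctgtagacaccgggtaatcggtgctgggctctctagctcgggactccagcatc
Idi1, chr13:8885356-8885655, plus strand: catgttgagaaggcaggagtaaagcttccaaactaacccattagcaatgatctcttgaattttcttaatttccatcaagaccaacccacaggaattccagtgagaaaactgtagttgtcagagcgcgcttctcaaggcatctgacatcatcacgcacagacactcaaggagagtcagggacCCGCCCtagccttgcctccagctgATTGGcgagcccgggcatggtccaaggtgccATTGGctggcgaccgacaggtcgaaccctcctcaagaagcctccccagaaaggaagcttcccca
Ggps1, chr13:14063439-14063738, minus strand: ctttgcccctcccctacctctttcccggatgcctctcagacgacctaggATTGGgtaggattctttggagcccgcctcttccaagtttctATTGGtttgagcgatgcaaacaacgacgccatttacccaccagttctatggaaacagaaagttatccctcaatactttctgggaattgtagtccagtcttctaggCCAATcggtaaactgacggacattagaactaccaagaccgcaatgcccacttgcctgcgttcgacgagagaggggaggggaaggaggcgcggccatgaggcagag

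The Hmgcs1 window was the only window of a member that held TCACCCCAC, with its first base at -137 from the start, and 0.551% of all 32851 mouse windows of 300 bases held it. The looser TCACNCCAC, which includes the stricter motif, was in 1.24% of all windows and added no match in the members. The Hmgcs1 window also had 4 CCAAT matches and 3 GC boxes. CCAAT was matched 5 times in the Mvk window, 3 times in that of Ggps1, 2 times each in those of Mvd and Idi1 and once in 1 of the 2 Pmvk windows, but not in that of Acat2. Over all windows, 37.4% held at least 1 CCAAT and 3.37% held 3 or more, and 35.7% held a GC box. These matches describe letters only, and the search does not cover other forms of the elements or sequence outside the windows. The map of the boxes shows that most CCAAT matches lie before the start.

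**Figure D1:**
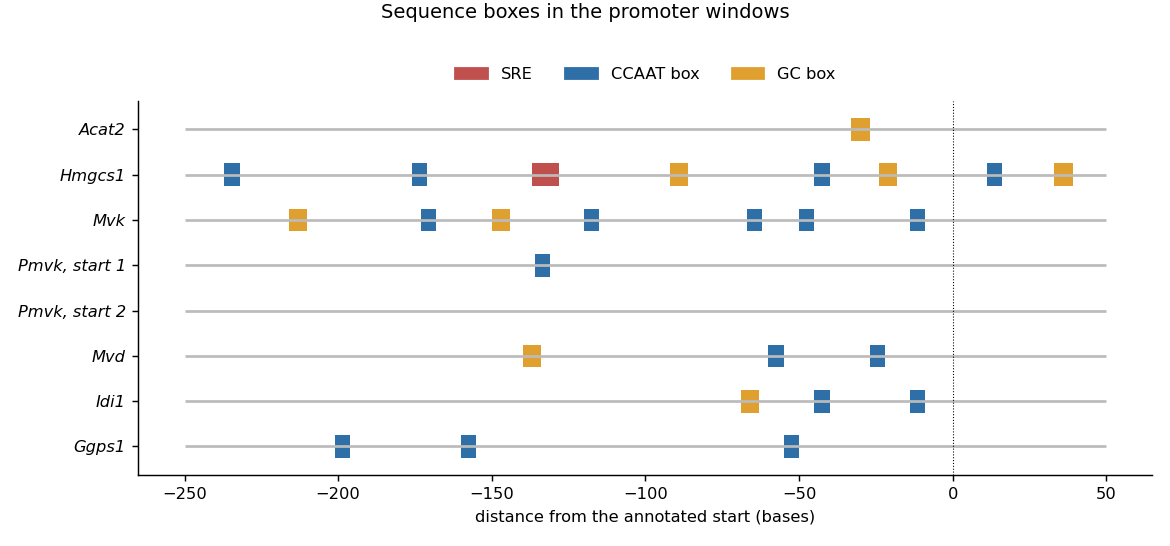
Positions of the sterol regulatory element (SRE, TCACCCCAC), CCAAT box and GC box in the promoter windows, by distance in bases from the annotated start (dotted line), with 1 row for each window and both starts of Pmvk. The Hmgcs1 window held the only SRE match, and 1 Pmvk window held none of the 3 boxes.

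Total counts were 20060867 to 32155727 per library. A level of 3 counts is 0.0854 to 0.163 CPM, the count per library size with TMM scaling. Depth behind the members differed widely. Hmgcs1 had 578 to 2783 counts per library, Ggps1 727 to 1211 and Mvd 498 to 1124, against 67 to 404 for Idi1 and 33 to 166 for Fdps. In GENCODE M21 on GRCm38, Fdps shares 1124 exon bases with the overlapping model Gm43738, which had 0 or 1 counts. Ggps1 shares 257 exon bases with Arid4b on the other strand, at 609 to 1011 counts. Hmgcs1 shares 557 exon bases with the antisense model Gm48342, at 0 to 6 counts, and Idi1 323 with Gm48574, at 0 counts. How reads in shared bases were counted is not given, so the levels of these 4 members are uncertain. Acat3, a close paralog of Acat2, had 0 to 11 counts and Idi2, the paralog of Idi1, 0 to 2.

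Monocyte markers were high in all 12 libraries, at a summed 31306 to 40629 CPM over 8 genes. Platelet replicate 1 was unlike its group. Divided by its degrees of freedom, the chi-square of its counts against those of replicates 2 and 3 was 69.1 and 75.8, where other within-group pairs gave 6.29 to 19.8. One label describes this library as a control, but the title and the treatment both say platelets, and results without it are given. The 8 platelet markers summed to 3619 to 3900 CPM in platelet plus LPS, 3386 to 6083 CPM in platelet, 3903 to 4716 CPM in LPS and 3789 to 4496 CPM in untreated libraries, highest in platelet replicate 1. Most of this is Pf4, which untreated monocytes held at 3843 CPM on average. Gp9, a platelet receptor subunit, averaged 4.10 CPM in platelet plus LPS, 10.1 CPM in platelet, 0.0241 CPM in LPS and 0.0117 CPM in untreated libraries. Gp1bb, a subunit of the same receptor, was at 0 on average in platelet plus LPS, LPS and untreated libraries and at 0.0117 CPM in platelet libraries. Gng11 averaged 64.6 CPM in platelet plus LPS, 99.5 CPM in platelet, 2.01 CPM in LPS and 1.81 CPM in untreated libraries. Ppbp went the other way, at 140, 174, 253 and 242 CPM in the same order. Itga2b, Tubb1 and Treml1 averaged below 1 CPM in every group. Of the 8 markers, 4 to 5 reached 1 CPM in platelet-exposed libraries, against 3 in the others. Erythroid markers summed to 7.08 to 9.24 CPM and 11.9 to 24.5 CPM in the platelet plus LPS and platelet libraries, against 0.0362 to 0.650 CPM and 1.12 to 1.61 CPM in LPS and untreated ones. The part of RNA from other cells in the differences below was not tested. In such bulk samples fewer cells of a type and less RNA per cell cannot be told apart.

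The first comparison asks how overnight platelet contact affected these enzymes in monocytes not given LPS. The enzymes at both ends of the chain to farnesyl diphosphate fell, and the kinases between them and Ggps1 did not pass the threshold. Of the 8 members, 5 were lower and 0 higher in edgeR's quasi-likelihood test at an adjusted p under 0.05, where 2.86% of all genes tested were lower and 3.63% higher. DESeq2 and limma-voom gave the same 5 and 0, and 6 were lower and 0 higher with the p left unadjusted. The median log2 fold change of the 8 was -0.69, against 0.00 over all genes tested. All 3 platelet libraries lay below all 3 untreated ones for the same number of members, 5, as they did for 12.6% of all genes tested. Summed markers of other cells also lay apart between these groups. The 5 neutrophil markers summed to 151 to 193 CPM in platelet libraries, against 339 to 358 CPM in untreated ones, nearly all of it Mmp8, while the defining marker Ly6g averaged 0.0919 CPM in platelet libraries and 0 in untreated ones. Basophil and mast cell markers summed to 6.55 to 9.22 CPM, dendritic cell markers to 4.97 to 7.40 CPM and T and NK cell markers to 1.57 to 3.38 CPM in platelet libraries, against 1.05 to 2.31, 1.46 to 2.63 and 0.807 to 1.23 CPM in untreated ones. Their part in the members' differences was not tested.

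Fdps, which makes farnesyl diphosphate, had 1.34, 1.59 and 1.51 CPM in platelet libraries, against 4.70, 4.77 and 5.65 CPM in untreated ones. The groups were far apart, and the level was low in both. It fell 3.39-fold (log2 -1.76, SE 0.24, 95% interval -2.27 to -1.25, adjusted p = 0.000268). Idi1, the isomerase, had 2.85, 5.19 and 4.21 CPM in platelet libraries, against 14.2, 13.4 and 12.5 CPM in untreated ones. Platelet replicate 1 was lowest, and the highest platelet library had less than any untreated library. Idi1 fell 3.26-fold (log2 -1.70, SE 0.18, adjusted p = 1.88e-05).

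Hmgcs1, which makes HMG-CoA, had 20.3, 26.8 and 26.4 CPM in platelet libraries, against 63.5, 57.0 and 59.6 CPM in untreated ones. It fell 2.45-fold (log2 -1.29, SE 0.10, adjusted p = 1.06e-06), again with platelet replicate 1 lowest. Acat2, the thiolase at the entry, had 11.1, 10.5 and 11.8 CPM in platelet libraries, against 17.4, 18.2 and 19.2 CPM in untreated ones. The groups did not overlap, and the fall was smaller, at 1.64-fold (log2 -0.71, SE 0.14, adjusted p = 0.00642). Mvd, the decarboxylase, had 20.7, 17.6 and 19.2 CPM in platelet libraries, against 30.1, 30.1 and 31.5 CPM in untreated ones, a 1.59-fold fall (log2 -0.67, SE 0.12, adjusted p = 0.00311). These 5 calls held in each of the 20 alternatives tried.

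The mevalonate kinases varied among the platelet libraries. Mvk had 19.8, 14.7 and 11.3 CPM in platelet libraries, against 18.2, 20.4 and 18.8 CPM in untreated ones. Pmvk had 25.5, 19.1 and 17.99 CPM in platelet libraries, against 24.1, 25.1 and 27.8 CPM in untreated ones. For both, platelet replicate 1 lay within the untreated range and the other 2 platelet libraries lay below it. The log2 fold changes were -0.33 (95% interval -0.67 to 0.01, adjusted p = 0.262) for Mvk and -0.30 (-0.58 to -0.01, adjusted p = 0.227) for Pmvk. Without platelet replicate 1 they were -0.54 (adjusted p = 0.0186) and -0.44 (adjusted p = 0.0307), which brought the count of lower members to 7. In that fit 296 of all 13568 genes tested were lower, against 376 of 13151 with every library. Ggps1 had 25.6, 27.1 and 29.7 CPM in platelet libraries, against 32.9, 28.7 and 29.0 CPM in untreated ones. The groups overlapped, with a log2 fold change of -0.14 (95% interval -0.34 to 0.07, adjusted p = 0.476).

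**Figure D2:**
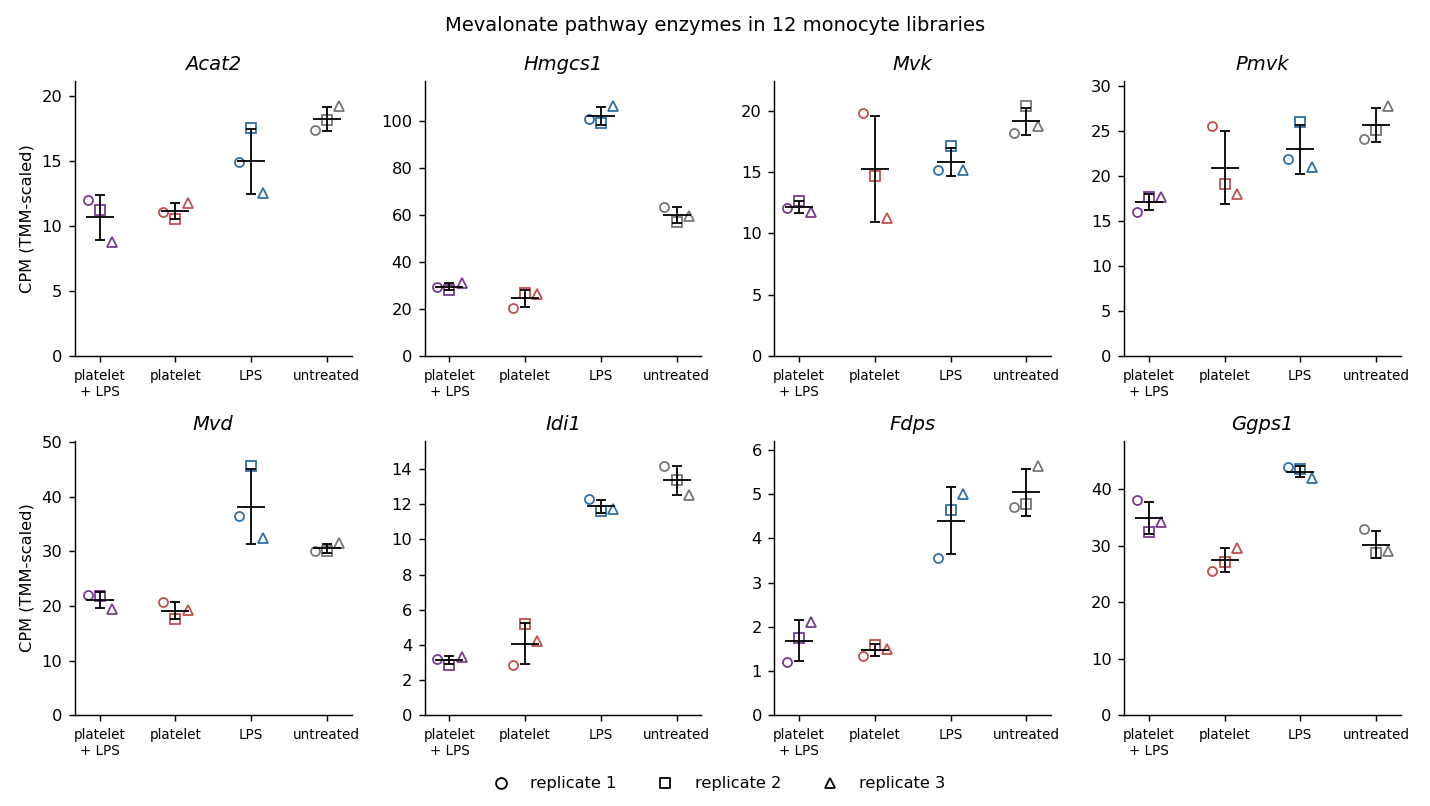
Level of each enzyme in CPM (TMM-scaled) in the 3 libraries of each group (open symbols, by replicate number), with the mean and SD (black). Hmgcs1, Idi1 and Fdps sit low in all 6 platelet-exposed libraries, Hmgcs1 is highest in LPS libraries at 99.3 to 106 CPM, and Mvk and Pmvk are spread most in the platelet group.

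The same question was asked of monocytes given LPS, with platelet plus LPS set against LPS alone. Every member was lower in all 3 platelet plus LPS libraries than in any LPS library, which 12.4% of all genes tested were. Of the 8 members, 4 were lower and 0 higher past edgeR's threshold, where 2.87% of all genes tested were lower and 4.41% higher. DESeq2 called 7 lower and limma-voom 4, edgeR with the p left unadjusted had all 8 lower, and none of these had a higher member. The median log2 fold change was -0.67, against 0.01 over all genes tested. All 4 members lower here, Hmgcs1, Mvd, Idi1 and Fdps, were among the 5 lower without LPS. The 2 comparisons share no library, although 1 fit estimated the spread of both. Neutrophil markers summed to 127 to 140 CPM in platelet plus LPS libraries, against 208 to 258 CPM in LPS libraries. Basophil and mast cell markers summed to 82.2 to 93.1 CPM, against 103 to 106 CPM. This lower basophil sum came from Hdc alone (80.4 against 103 CPM on average). Mcpt8 (1.77 against 0.122), Prss34 (4.15 against 0.324) and Gata2 (1.25 against 0.616) averaged higher in platelet plus LPS libraries. The lower neutrophil sum was mostly from Mmp8 (121 against 230). Ly6g also averaged lower (0 against 0.0271), while Ngp, Camp and Ltf averaged higher. Dendritic cell markers overlapped, at 29.4 to 37.7 CPM in platelet plus LPS libraries and 34.6 to 40.9 CPM in LPS libraries. The part of these cells here was not tested either.

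Idi1 had 3.20, 2.87 and 3.33 CPM in platelet plus LPS libraries, against 12.3, 11.6 and 11.7 CPM in LPS libraries. The libraries of each group were close together, and Idi1 fell 3.79-fold (log2 -1.92, SE 0.19, adjusted p = 8.19e-06). Hmgcs1 had 29.4, 28.1 and 31.1 CPM in platelet plus LPS libraries, against 101, 99.3 and 106 CPM in LPS libraries. It fell 3.46-fold (log2 -1.79, SE 0.11, adjusted p = 3.79e-08). Fdps had 1.20, 1.76 and 2.11 CPM in platelet plus LPS libraries, against 3.55, 4.63 and 5.01 CPM in LPS libraries, and fell 2.60-fold (log2 -1.38, SE 0.24, adjusted p = 0.00236). Mvd had 22.0, 21.8 and 19.5 CPM in platelet plus LPS libraries, against 36.5, 45.7 and 32.4 CPM in LPS libraries. It fell 1.81-fold (log2 -0.86, SE 0.12, adjusted p = 0.00041), with LPS replicate 2 above the other LPS libraries. These 4 calls held in each of the 20 alternatives.

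The other members had smaller differences. Acat2 had 12.01, 11.2 and 8.73 CPM in platelet plus LPS libraries, against 14.9, 17.5 and 12.5 CPM in LPS libraries (log2 -0.49, SE 0.15, adjusted p = 0.053). Pmvk had 16.01, 17.6 and 17.6 CPM in platelet plus LPS libraries, against 21.9, 26.0 and 20.9 CPM in LPS libraries (log2 -0.43, SE 0.14, adjusted p = 0.0771). Mvk averaged 12.1 ± 0.455 CPM in platelet plus LPS libraries and 15.8 ± 1.12 CPM in LPS libraries (SD, n = 3 each), with a log2 fold change of -0.38 (adjusted p = 0.204). Ggps1 averaged 34.9 ± 2.85 CPM in platelet plus LPS libraries and 43.1 ± 1.04 CPM in LPS libraries, with a log2 fold change of -0.31 (adjusted p = 0.0764). In a fit without platelet replicate 1, which is in neither group but enters the shared estimate of spread, all 8 members were lower, with adjusted p = 0.0396 for Mvk, the highest of the 8. Calls over all genes rose as well, to 777 of 13568 lower, against 377 of 13151 with every library.

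**Figure D3:**
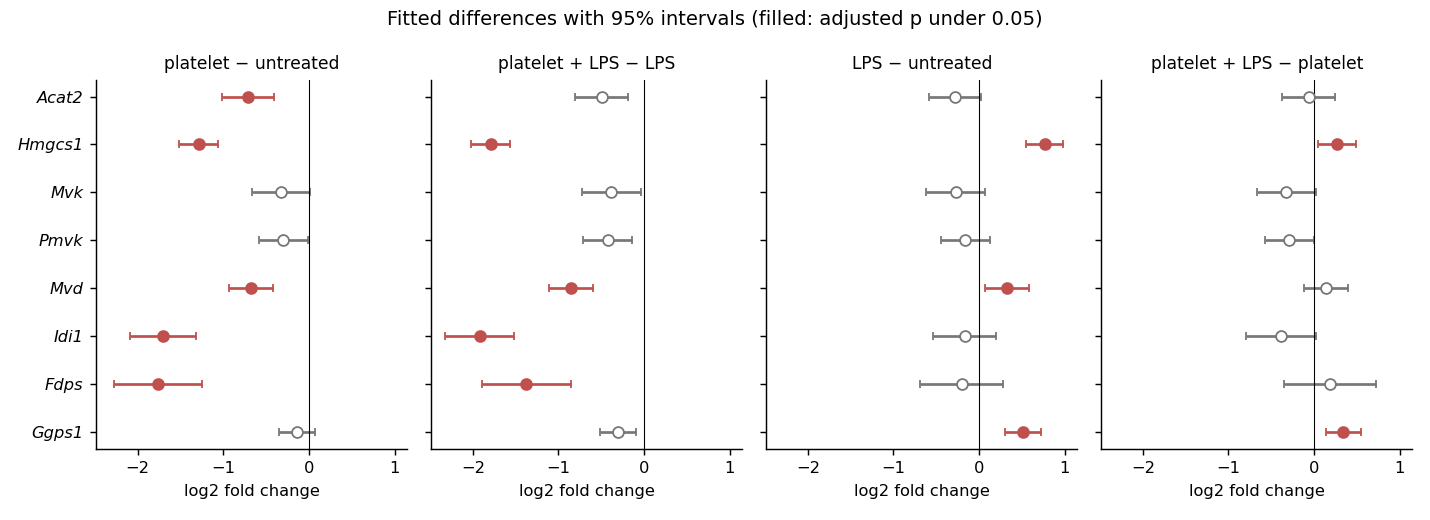
Fitted log2 fold change of each enzyme with its 95% interval in 4 comparisons, filled red where the adjusted p is under 0.05. Every point lies below 0 in both platelet comparisons, while Hmgcs1, Mvd and Ggps1 lie above 0 in LPS against untreated cells.

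Whether the platelet effect differed with LPS was tested as an interaction (the effect in LPS-treated cells minus the effect in cells not given LPS). No member passed edgeR's threshold, which 1.58% of all genes tested did. Limma-voom also called 0, while DESeq2 called 1, Hmgcs1, as did edgeR with the p left unadjusted. For Hmgcs1 the difference was -0.50 (SE 0.15, 95% interval -0.81 to -0.19, adjusted p = 0.132). It was -0.65 without platelet replicate 1 (adjusted p = 0.00345) and -0.53 by DESeq2 (adjusted p = 0.0396), so this call depends on that library and on the tool. The 95% intervals of the other members all held 0 and reached from -0.76 for Idi1 to 1.11 for Fdps.

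The effect of LPS alone was measured against untreated cells. Hmgcs1, Mvd and Ggps1 rose, and the other 5 members did not pass the threshold, all with negative log2 fold changes. Of the 8 members, 3 were higher and 0 lower, by each tool and also with edgeR's p left unadjusted, where 27.7% of all genes tested were higher and 23.0% lower. The members' share of calls lies near that background. Among markers of other cells, dendritic cell ones summed to 34.6 to 40.9 CPM in LPS and 1.46 to 2.63 CPM in untreated libraries. Basophil or mast cell markers summed to 103 to 106 against 1.05 to 2.31 CPM. Neutrophil markers summed to 208 to 258 against 339 to 358 CPM. The dendritic and basophil differences were mostly from Ccr7 and Hdc, and the neutrophil one from Mmp8 (230 against 342 CPM on average). Ngp (5.03 against 4.32), Camp (2.99 against 1.12) and Ltf (2.26 against 1.78) averaged higher in LPS libraries, as did Ly6g (0.0271 against 0). Mcpt8 (0.122 against 0.290) and Prss34 (0.324 against 0.868) averaged lower there, and Gata2 (0.616 against 0.267) higher. The part of these cells in the members' values was not tested. Hmgcs1 had 101, 99.3 and 106 CPM in LPS libraries, against 63.5, 57.0 and 59.6 CPM in untreated ones, a 1.70-fold rise (log2 0.77, SE 0.10, adjusted p = 1.07e-05). Ggps1 had 43.8, 43.5 and 41.9 CPM in LPS libraries, against 32.9, 28.7 and 29.0 CPM in untreated ones, a 1.43-fold rise (log2 0.51, SE 0.10, adjusted p = 0.00038). The groups of both genes were clearly apart. Arid4b, which overlaps Ggps1, also rose with LPS (log2 0.52, adjusted p = 0.00423), and the reads in their shared bases cannot be told apart without strand. Mvd had 36.5, 45.7 and 32.4 CPM in LPS libraries, against 30.1, 30.1 and 31.5 CPM in untreated ones (log2 0.32, SE 0.12, adjusted p = 0.0351). Without LPS replicate 2, its highest library, Mvd's log2 fold change was 0.18 (adjusted p = 0.23).

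The remaining members gave intervals on both sides of 0. The log2 fold changes of LPS over untreated cells were -0.28 for Acat2 (95% interval -0.59 to 0.02), -0.27 for Mvk (-0.61 to 0.07), -0.16 for Pmvk (-0.45 to 0.13), -0.17 for Idi1 (-0.53 to 0.20) and -0.20 for Fdps (-0.68 to 0.28). Adjusted p-values ran from 0.115 for Acat2 to 0.494 for Fdps. For 2 of the 8, Mvk and Idi1, all LPS libraries lay below all untreated ones, as they did for 28.5% of all genes tested. Mvk had 15.1 to 17.1 CPM in LPS libraries, against 18.2 to 20.4 CPM in untreated ones, and Idi1 had 11.6 to 12.3 CPM, against 12.5 to 14.2 CPM. With library size alone as the scale, all genes shifted by -0.38 and 5 members were lower, while only Hmgcs1 was higher. On that scale 5975 of all 13151 genes tested were lower and 2133 higher.

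The effect of LPS was also measured in platelet-exposed cells. In platelet plus LPS against platelet libraries, 2 of 8 members were higher and 0 lower, where 27.6% of all genes tested were higher and 21.8% lower. Dendritic cell markers summed to 29.4 to 37.7 CPM, basophil and mast cell markers to 82.2 to 93.1 CPM and neutrophil markers to 127 to 140 CPM in platelet plus LPS libraries, against 4.97 to 7.40, 6.55 to 9.22 and 151 to 193 CPM in platelet libraries, and their part was not tested. With the p left unadjusted 2 members were higher and 0 lower, and by limma-voom 1 and 0. DESeq2 had 1 member higher and 1 lower, Pmvk (log2 -0.34, adjusted p = 0.0328). Ggps1 had 38.0, 32.4 and 34.2 CPM in platelet plus LPS libraries, against 25.6, 27.1 and 29.7 CPM in platelet libraries, a 1.27-fold rise (log2 0.34, SE 0.10, adjusted p = 0.00852). Hmgcs1 had 29.4, 28.1 and 31.1 CPM in platelet plus LPS libraries, against 20.3, 26.8 and 26.4 CPM in platelet libraries (log2 0.27, SE 0.11, adjusted p = 0.0462), a call lost in 17 of 20 alternatives. Without platelet replicate 1 these were 0.24 for Ggps1 (adjusted p = 0.0582) and 0.09 for Hmgcs1 (adjusted p = 0.393), and Idi1 was then lower (log2 -0.64, adjusted p = 0.00363). Leaving out platelet replicate 3 called 4 members, with Mvk and Pmvk lower, where 3546 of all 13489 genes tested were higher and 2745 lower. Leaving out platelet plus LPS replicate 1 called 0 members, where 5876 of all 13505 genes tested were called. Leaving out any 1 of the other libraries, apart from platelet replicate 2, called 1 member. Over all genes, leaving out 1 library called 5835 to 6754. Arid4b rose in this comparison too (log2 0.42, adjusted p = 0.0175).

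Put in order of level, the groups fell into a few patterns. Hmgcs1 ran from LPS (102 ± 3.77 CPM) through untreated (60.0 ± 3.28 CPM) and platelet plus LPS (29.5 ± 1.51 CPM) to platelet (24.5 ± 3.61 CPM), and no neighbours in that order overlapped. Mvd had the same order, with overlap only between platelet plus LPS (21.1 ± 1.42 CPM) and platelet libraries (19.2 ± 1.53 CPM). Acat2, Mvk, Pmvk and Idi1 were each highest in untreated libraries, followed by LPS, platelet and platelet plus LPS libraries. In that order untreated and LPS libraries overlapped for Acat2 and Pmvk, LPS and platelet libraries for Mvk and Pmvk, and platelet and platelet plus LPS libraries for Acat2, Mvk and Idi1. Fdps was highest in untreated libraries (5.04 ± 0.527 CPM), overlapping those with LPS (4.397 ± 0.760 CPM), with both platelet-exposed groups below. Ggps1 alone had platelet plus LPS libraries (34.9 ± 2.85 CPM) above untreated ones (30.2 ± 2.35 CPM), although these overlapped.

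Levels of different genes were compared per kilobase of exon in GENCODE M21. In untreated cells Mvd (16.4 ± 0.436 CPM per kb), Pmvk (15.0 ± 1.097) and Hmgcs1 (13.1 ± 0.714) were highest, and Idi1 (3.81 ± 0.236) and Fdps (1.20 ± 0.125) lowest. In LPS cells Hmgcs1 was highest, at 22.2 ± 0.821 CPM per kb, next to Mvd at 20.5 ± 3.65. In platelet cells Hmgcs1, at 5.33 ± 0.786 CPM per kb, lay beside Ggps1 at 5.82 ± 0.436 and Mvk at 5.70 ± 1.60. Pmvk (12.2 ± 2.37) and Mvd (10.3 ± 0.823) were then highest and Fdps, at 0.352 ± 0.0311, lowest. These levels assume that the M21 gene models match those the authors counted on.

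**Figure D4:**
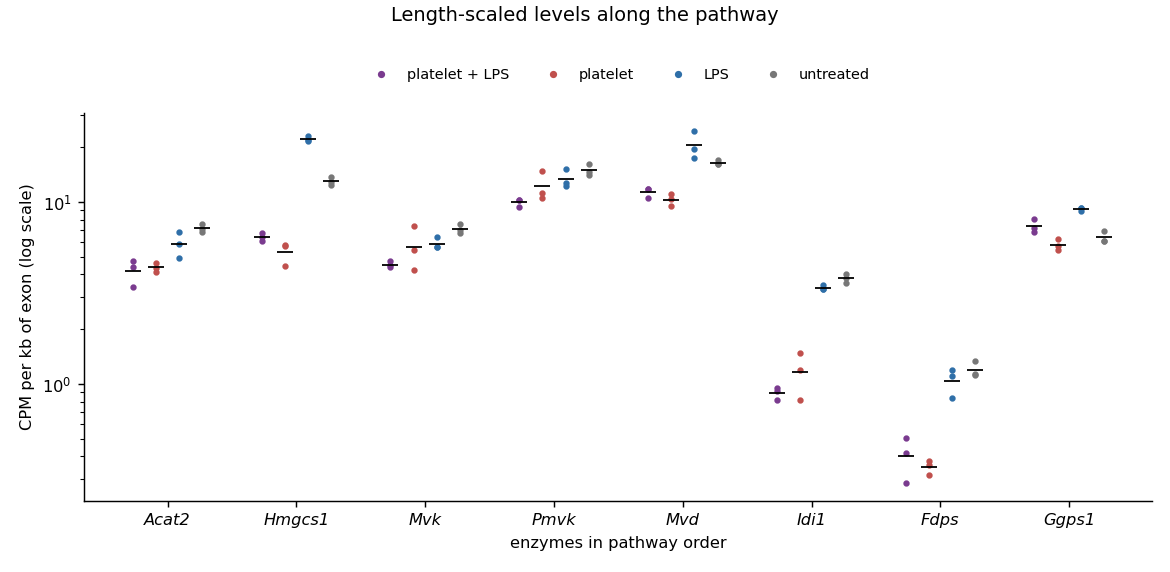
Level of each enzyme per kilobase of exon (log scale) in pathway order, with 1 point for each library and a bar at each group mean. Idi1 and Fdps are lowest in all groups, and Hmgcs1 spans the range from 5.33 in platelet to 22.2 CPM per kb in LPS cells.

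The rest of the pathway was counted in 4 further lists, from the acetyl-CoA supply to the regulators. Over all genes tested, 2.86% were lower and 3.63% higher with platelets without LPS, and 2.87% lower and 4.41% higher with LPS. Downstream of farnesyl diphosphate, 9 of 12 squalene to cholesterol genes were lower with platelets without LPS (median log2 -1.29) and 9 with LPS (median -1.71). None was higher by edgeR, DESeq2 or limma-voom, or with the p left unadjusted. Fdft1, squalene synthase, which draws on farnesyl diphosphate, had 16.01, 18.7 and 15.2 CPM in platelet libraries, against 43.4, 44.0 and 46.3 CPM in untreated ones (log2 -1.42, SE 0.10, adjusted p = 3.48e-07). With LPS it averaged 17.3 ± 1.71 CPM in platelet plus LPS libraries and 56.1 ± 0.935 CPM in LPS libraries (log2 -1.70, SE 0.10, adjusted p = 4.97e-08). Msmo1 and Sc5d, which act on sterol intermediates, were the listed genes with an interaction past the threshold, at -0.75 (adjusted p = 0.0132) and -0.67 (adjusted p = 0.0445). DESeq2 also called 2 of the 12 for the interaction, limma-voom 1, and edgeR without platelet replicate 1 called 4.

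Genes that use prenyl diphosphates for protein prenylation, dolichol, ubiquinone or haem A were mostly not called with platelets. Of 18 tested, 1 was higher and 0 lower without LPS, where 3.63% of all genes tested were higher and 2.86% lower. Those counts of 1 and 0 held with each tool and with the p left unadjusted, and the median was -0.03. With LPS 1 was higher and 0 lower by edgeR and limma-voom, with 1 lower by DESeq2 and 2 with the p left unadjusted, and a median of -0.12. The higher one in both was Coq2, which attaches the ubiquinone side chain, at log2 0.39 (SE 0.10, adjusted p = 0.0239) without LPS and 0.42 (SE 0.10, adjusted p = 0.014) with LPS. LPS against untreated cells gave 5 higher and 3 lower of the 18, where 27.7% of all genes tested were higher and 23.0% lower. Platelet plus LPS against platelet cells gave 2 and 2, where 27.6% of all genes tested were higher and 21.8% lower. Pggt1b, a subunit of the enzyme that transfers the product of Ggps1 to proteins, rose with LPS (log2 0.74, adjusted p = 0.000203).

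On the acetyl-CoA side 5 of 7 genes were tested. Of these 2 were lower with platelets without LPS, where 2.86% of all genes tested were. They were Acly and Acss2, which make cytosolic acetyl-CoA from citrate and from acetate. Acly averaged 157 ± 31.0 CPM in platelet libraries and 236 ± 27.0 CPM in untreated ones (log2 -0.59, adjusted p = 0.0114), and Acss2 2.73 ± 0.676 and 5.01 ± 0.182 CPM (log2 -0.87, adjusted p = 0.00663). With LPS 2 were lower, Acss2 (log2 -0.70, adjusted p = 0.00797) and Slc25a1, the mitochondrial citrate carrier (log2 -0.34, adjusted p = 0.0218). None was higher by edgeR, DESeq2 or limma-voom in either, and 1 was higher with LPS with the p left unadjusted. Acss2 rose 6.12-fold with LPS in cells without platelets (adjusted p = 1.09e-09).

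Among 9 sterol-sensing regulators, 2 were lower and 1 higher in each platelet comparison, and the medians were -0.18 without LPS and -0.13 with it. Srebf2, which encodes SREBP-2, had 58.3, 77.7 and 79.5 CPM in platelet libraries, against 181, 177 and 164 CPM in untreated ones (log2 -1.27, SE 0.11, adjusted p = 2.06e-06). Insig1, which retains the SREBP complex in the endoplasmic reticulum, had 16.8, 23.9 and 22.2 CPM in platelet libraries, against 57.4, 55.3 and 51.6 CPM in untreated ones (log2 -1.38, SE 0.13, adjusted p = 6.12e-06). With LPS their log2 fold changes were -1.22 (adjusted p = 3.3e-06) and -1.46 (adjusted p = 3.51e-06). The higher gene was Nr1h3, the LXR-alpha receptor, at log2 1.37 (adjusted p = 1.06e-06) without and 1.29 (adjusted p = 1.12e-06) with LPS. Mmab, which lies 209 bases from Mvk on the other strand, averaged 10.5 ± 1.82 CPM in platelet and 10.9 ± 1.44 CPM in untreated libraries (adjusted p = 0.913). Without platelet replicate 1 the squalene to cholesterol list still had 9 lower in each platelet comparison, and the regulators had 2 lower without and 3 with LPS.

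**Figure D5:**
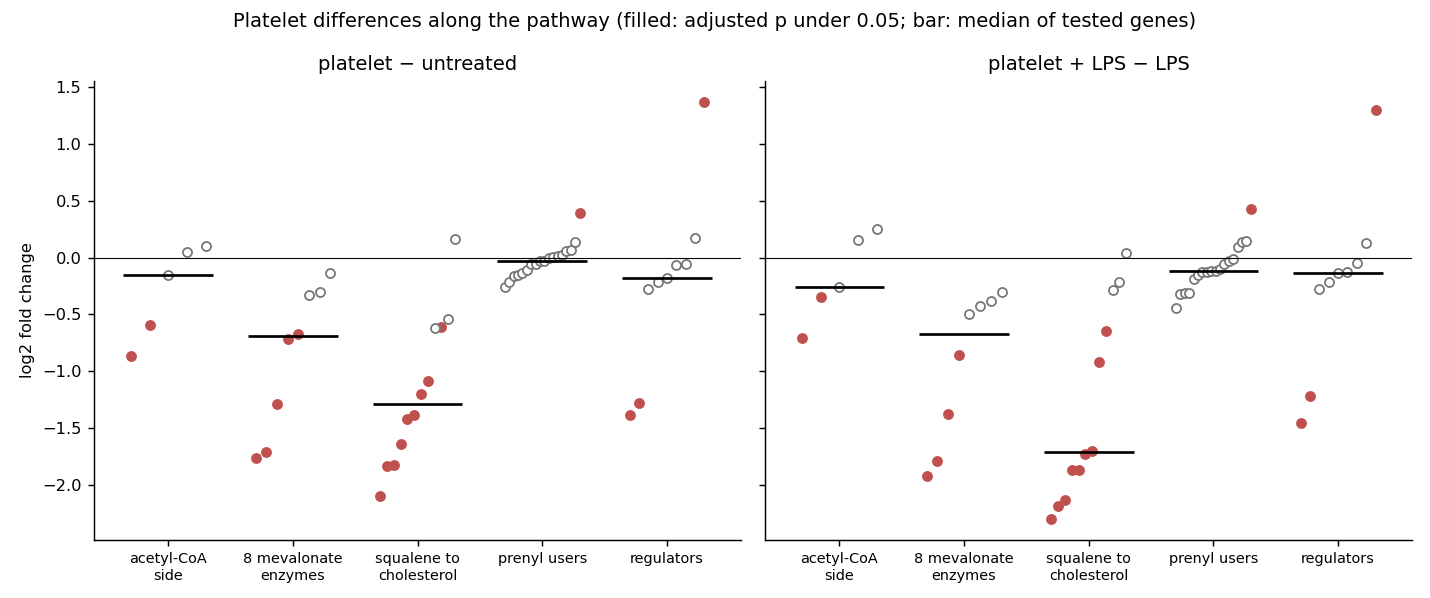
Log2 fold change of each tested gene in 2 platelet comparisons, by step of the pathway, filled red where the adjusted p is under 0.05, with a bar at the median. The 8 mevalonate enzymes (median -0.69 without and -0.67 with LPS) and the squalene to cholesterol genes lie mostly below 0, while the users of prenyl diphosphates lie near 0.

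The members were not equally alike. Across the 12 libraries, which share group and depth differences, the log2 CPM of Idi1, Fdps, Mvd and Hmgcs1 followed the mean of the other 7 members with Pearson's r of 0.94, 0.93, 0.92 and 0.90. Acat2 had 0.82, Pmvk 0.69, Mvk 0.58 and Ggps1 0.40. Among 7854 other tested genes with a mean of at least 10 CPM, the closest to the mean profile of the 8 was Fdft1 (r = 0.99 over 12 libraries). It was followed by Insig1, Sc5d, Cyp51 and Srebf2 (each 0.97), and Lpl and Gsdme (0.97 and 0.96). Lpl encodes the lipase of triglyceride-rich lipoproteins and Gsdme a pore-forming gasdermin. These correlations describe the libraries and carry no test.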

How the data were processed

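RNA was measured in 12 libraries in 4 groups of 3, assigned from titles. Per the labels' protocols, cDNA came from a SMARTer Ultra Low Input kit and libraries from Nextera XT. Tools named, per the submitters' processing notes, are Salmon 1.5.2, Subread 2.0.1 (featureCounts), STAR 2.7.9a and fastp 0.23.1, with no role given. The authors deposited raw counts, whole numbers for each gene. The sources used here do not give the build, annotation or strand setting.

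Genes passing filterByExpr of edgeR 4.0.16 (13151) were TMM-scaled. The edgeR quasi-likelihood model (R 4.3.3) was 1 fit of 4 group means without a replicate block. Tests are two-sided, with Benjamini-Hochberg adjustment over all genes tested and a threshold of 0.05. The SE comes from the F statistic. CPM uses the TMM-scaled library size. The mean profile uses log2 CPM with a prior count of 2. Motifs were searched on both strands of RefSeq GRCm38.p6 windows. Exon lengths and overlaps are from GENCODE M21, which held 49948 of the 53819 names. The fit was checked on counts simulated with the fitted spread and no outlying library, so this check does not cover an effect of platelet replicate 1.

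Named are all 8 members, up to 4 genes of each context list by smallest p, overlapping or neighbouring genes, and the 8 genes closest to the members' profile, Gm and Rik names left out, of which 1 is not reported here. Pggt1b, the overlapping Gm models and the marker genes named singly were chosen after their values were seen. The members and lists were chosen with earlier results of these data known. Alternatives were other scalings in edgeR (size factors as DESeq2 makes them, or none beyond library size), no filter, a stricter filter (at least 1 CPM and at least 10 counts in 3 libraries), a block for replicate number, DESeq2 1.42.0 (Wald test), limma-voom (limma 3.58.1), fitting the compared pair alone, and dropping each single library. Floors of 3 counts cover counting error only, since reads amplified without molecular identifiers are not independent molecules.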

Additional observations from a re-analysis of the deposited data

Results flagged for a closer look

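The test of the difference between the platelet effect with LPS and that without passed the threshold for 2 sterol enzymes of the context lists. For Msmo1 the platelet effect was -2.13 with LPS and -1.38 without on the log2 scale, a difference of -0.75 (SE 0.14, adjusted p = 0.0132). For Sc5d it was -1.86 with LPS and -1.20 without, a difference of -0.67 (SE 0.15, adjusted p = 0.0445). Among the 12 squalene to cholesterol genes, DESeq2 also called 2, limma-voom called 1, and edgeR without platelet replicate 1 called 4. Neither gene is a member, and no cause was tested.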

How the results depend on the processing

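The falls of Acat2, Hmgcs1, Mvd, Idi1 and Fdps with platelets, and of all but Acat2 with LPS, were past the threshold in all 20 alternatives. Over the members' log2 fold changes in all comparisons, 725 of the alternative values kept direction and side of the threshold, 32 passed it newly, 25 no longer did and 10 changed sign. Leaving out 1 library gave 5 to 7 members called for platelets without LPS, 4 to 8 for platelets with LPS, 2 to 4 for LPS alone, 0 to 4 for LPS with platelets and 0 to 1 for the interaction. Over all genes it gave 5906 to 7426 called for LPS alone and 5835 to 6754 for LPS with platelets. Library size alone shifts the LPS comparisons by -0.38 and -0.36. It called 6 members for LPS alone and 4 for LPS with platelets, where 8108 and 7943 of all 13151 genes tested were called. It turned Mvd to -0.060 for LPS alone, and Hmgcs1, Mvd, Fdps and Ggps1 to -0.10, -0.22, -0.18 and -0.017 for LPS with platelets. For LPS with platelets no filter, the replicate block, limma-voom and the 2 groups alone each called 1 member. DESeq2 called 7 members for platelets with LPS and 1 for the interaction. Leaving out 1 library turned 4 uncalled values: the interactions of Mvk (-0.23 to 0.14) and Pmvk (-0.22 to 0.0031), and, for LPS with platelets, Acat2 (-0.16 to 0.063) and Fdps (-0.011 to 0.38). The causes were not tested.

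Same-numbered libraries did not deviate together (median correlation 0.00 over 18 pairs, 1 above 0.1). With 3 libraries in each group, this cannot show whether same-numbered libraries share an animal. With the replicate block 621, 6359, 726, 6210 and 118 genes were called, against 854, 6661, 957, 6498 and 208, for platelets without LPS, LPS alone, platelets with LPS, LPS with platelets and the interaction. Mvd with LPS alone was then at an adjusted p of 0.0539. Over all genes the count for platelets without LPS was 1291 by DESeq2, 415 with the 2 groups alone and 410 to 1027 with 1 library left out. For platelets with LPS, it was 557 to 1640 with 1 library left out. The interaction had 371 without a filter, 403 by DESeq2 and 87 to 361 with 1 library left out. Of 64 mean levels under another scale, 23 moved by more than 1 SD. Counts of 33 to 166 limit the precision of Fdps.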
